A study of Mus musculus with 36 samples.

Results

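Keratin-associated protein genes are the genes that build the matrix between the keratin filaments of the hair shaft. They were taken here as all genes whose symbol in the files starts with Krtap, which gave 58 members of 55414 genes, in 27 numbered subfamilies. RNA was sequenced from 36 mouse skin libraries. There were 3 libraries of unwounded skin and 33 of wound tissue taken 2, 4 or 12 days after injury, from a group labelled P and a group labelled PD. P had 5, 5 and 6 libraries at the 3 days, and PD had 5, 6 and 6. The labels do not spell out P and PD, and strain, genotype, sex, age and wound size are not given in the sources used here. The series title concerns the removal of p21-high senescent cells during wound healing. Nothing in the labels ties a library to an animal, so p-values measure the spread between these libraries only, which may be in part technical. The 3 unwounded libraries are the controls of every comparison with unwounded skin.

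Hair grows from the matrix at the base of the follicle, where dividing cells move up and become the cortex and cuticle of the shaft. These cells first fill with hair keratins and then, higher in the shaft, with keratin-associated proteins, which are small, often made from a single exon, and joined to the keratins by disulphide bonds. By composition the proteins are called high-sulfur, ultrahigh-sulfur or high-glycine-tyrosine. The genes are active in growing follicles and largely silent in resting ones, and the transcription factors Hoxc13 and Foxn1 are known regulators of hair keratin and Krtap genes.

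The family falls into composition classes that can be read from the codons of the genome. No protein table was at hand, so the classes were set from the coding sequences of GRCm39: at least 35% glycine plus tyrosine codons for high-glycine-tyrosine, otherwise at least 30% cysteine codons for ultrahigh-sulfur, and the remainder high-sulfur. This gave 17 ultrahigh-sulfur genes, 21 high-sulfur genes and 19 high-glycine-tyrosine genes. Krtap19-9a, annotated as a pseudogene, has no coding sequence and was left without a class. Ultrahigh-sulfur genes had 30.32% to 41.49% cysteine codons, and high-glycine-tyrosine genes had 35.97% to 69.23% glycine plus tyrosine codons. High-sulfur genes, being the remainder, had 4% to 29.77% cysteine codons, so the class name does not mean that each is rich in cysteine. Just inside the cysteine limit lay Krtap10-4 at 30.32%, and just outside it Krtap2-4 at 29.77%. Just inside the glycine plus tyrosine limit lay Krtap5-2 at 35.97%, and just outside it Krtap17-1 at 34.86%. Of the 19 high-glycine-tyrosine genes, 4 also pass the cysteine limit (Krtap5-2, Krtap5-3, Krtap28-10 and Krtap28-13), and judging cysteine first would make them ultrahigh-sulfur.

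**Figure D1:**
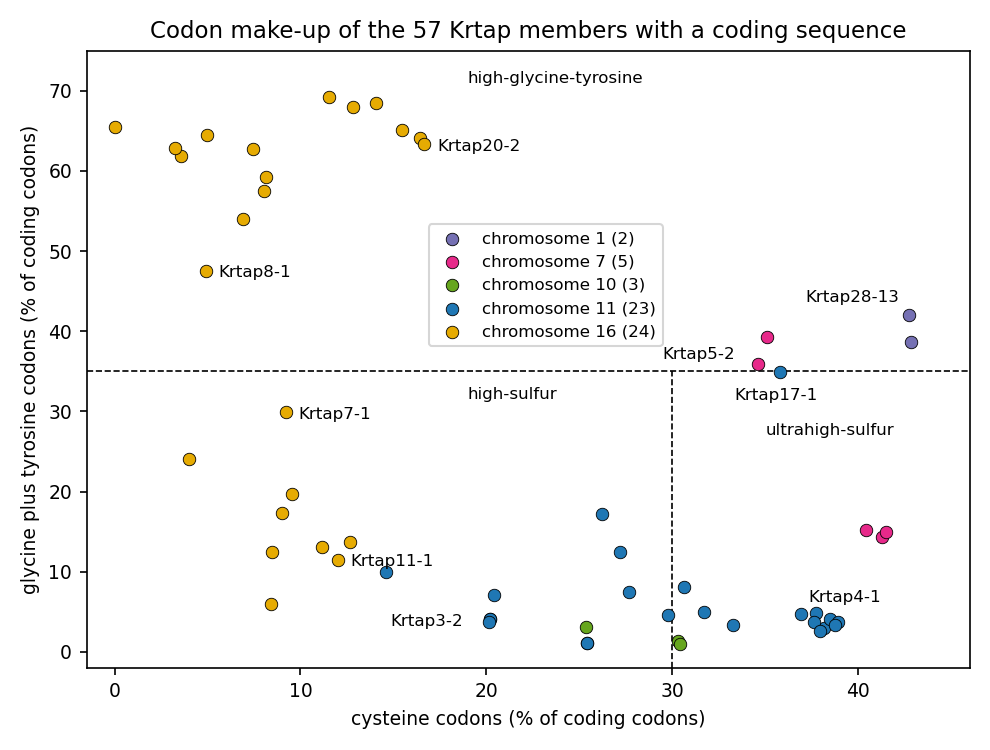
Percent of cysteine codons (x axis) against percent of glycine plus tyrosine codons (y axis) for the 57 members with a coding sequence, each point 1 gene coloured by chromosome; the lines mark the class limits at 30% and 35%. The 15 high-glycine-tyrosine genes of chromosome 16 lie to the left at 47.54% or more, and the other 4 (chromosomes 1 and 7) lie to the right, just above the limit.

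Members lie in blocks on 5 chromosomes. Chromosome 16 holds 25 of them (88407593 to 89368071 in GRCm39), chromosome 11 holds 23 (99440956 to 99884820), chromosome 7 holds the 5 Krtap5 genes, chromosome 10 holds 3 and chromosome 1 holds the 2 Krtap28 genes. Of the 19 high-glycine-tyrosine genes, 15 lie in the chromosome 16 block, which holds no ultrahigh-sulfur gene, 2 on chromosome 7 and 2 on chromosome 1. A single exon makes up 57 of the 58 genes. The 3 chromosome 10 members, Krtap10-4, Krtap10-10 and Krtap12-1, overlap the gene Tspear.

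Stretches of 30 codons show what sets the classes apart, and are given for the genes on which the results below turn. Capitals mark cysteine codons in Krtap4-1 (ultrahigh-sulfur), in Krtap3-2 and Krtap7-1 (high-sulfur) and in Krtap5-2 (rich in cysteine and in glycine), and glycine and tyrosine codons in Krtap8-1 and Krtap20-2 (high-glycine-tyrosine). All are 5′ to 3′ on the gene's strand in GRCm39.
Krtap4-1, chr11:99518625-99518714, minus strand: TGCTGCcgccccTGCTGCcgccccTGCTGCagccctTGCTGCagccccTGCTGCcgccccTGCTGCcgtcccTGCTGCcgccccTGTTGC
Krtap5-2, chr7:141728695-141728784, minus strand: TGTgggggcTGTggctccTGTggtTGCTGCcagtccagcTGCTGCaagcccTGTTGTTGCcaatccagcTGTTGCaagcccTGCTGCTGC
Krtap3-2, chr11:99447534-99447623, minus strand: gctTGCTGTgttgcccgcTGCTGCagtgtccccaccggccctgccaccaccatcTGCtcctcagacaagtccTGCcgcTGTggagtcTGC
Krtap7-1, chr16:89305055-89305144, minus strand: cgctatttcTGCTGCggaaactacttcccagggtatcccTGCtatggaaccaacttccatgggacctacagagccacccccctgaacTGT
Krtap8-1, chr16:89284658-89284747, minus strand: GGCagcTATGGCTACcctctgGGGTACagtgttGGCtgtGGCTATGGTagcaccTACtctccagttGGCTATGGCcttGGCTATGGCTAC
Krtap20-2, chr16:89002841-89002930, plus strand: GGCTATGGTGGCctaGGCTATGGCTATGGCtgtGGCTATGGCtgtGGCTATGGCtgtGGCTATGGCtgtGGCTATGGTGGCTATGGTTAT
Cysteine codons come in pairs through the Krtap4-1 stretch, 16 of 30 in all, and Krtap5-2 has 15 of 30. Krtap3-2 has 8 and Krtap7-1 has 4. Glycine and tyrosine make up 18 of 30 codons in Krtap8-1 and 25 of 30 in Krtap20-2.

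Levels below are counts per 1000000 counts (CPM), with library sizes scaled by the TMM method. Library totals, in units of 1000000 counts, ran from 11.807 to 58.376 with a median of 30.397. Of the 58 members, 56 passed the filter on low counts and were tested with edgeR's quasi-likelihood test across 20657 genes with Benjamini-Hochberg adjustment at 0.05. Krtap13, with 6 counts over all libraries, and Krtap20-2, with 745, were not tested. Most members passed that filter through day 12 libraries, so counts of members called at day 12 describe the family and do not stand as support for a rise. In whole tissue, fewer hair-forming cells and less RNA per cell cannot be told apart.

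Library by library, the summed Krtap level split the series by more than 100-fold within a group. Unwounded skin had 9.16, 5.86 and 9.54 CPM. At day 2 the highest library had 1.25 CPM and the lowest 0.0892 CPM. At day 4 the PD libraries had 2.53, 9.53, 0.280, 0.979, 0.918 and 0.367 CPM. The P libraries of day 4 had 6.81, 7.17, 4305, 8.65 and 2.90 CPM, so that 1 library of 5, replicate 3, was far above all other day 4 libraries. At day 12 the P libraries had 4028, 11.3, 3468, 9375, 8207 and 9821 CPM, and the PD libraries had 2736, 6247, 1318, 1853, 17.1 and 11225 CPM. In each day 12 group 5 of 6 libraries were above 1000 CPM, and 1 library (replicate 2 of P, replicate 5 of PD) was near the level of unwounded skin.

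**Figure D2:**
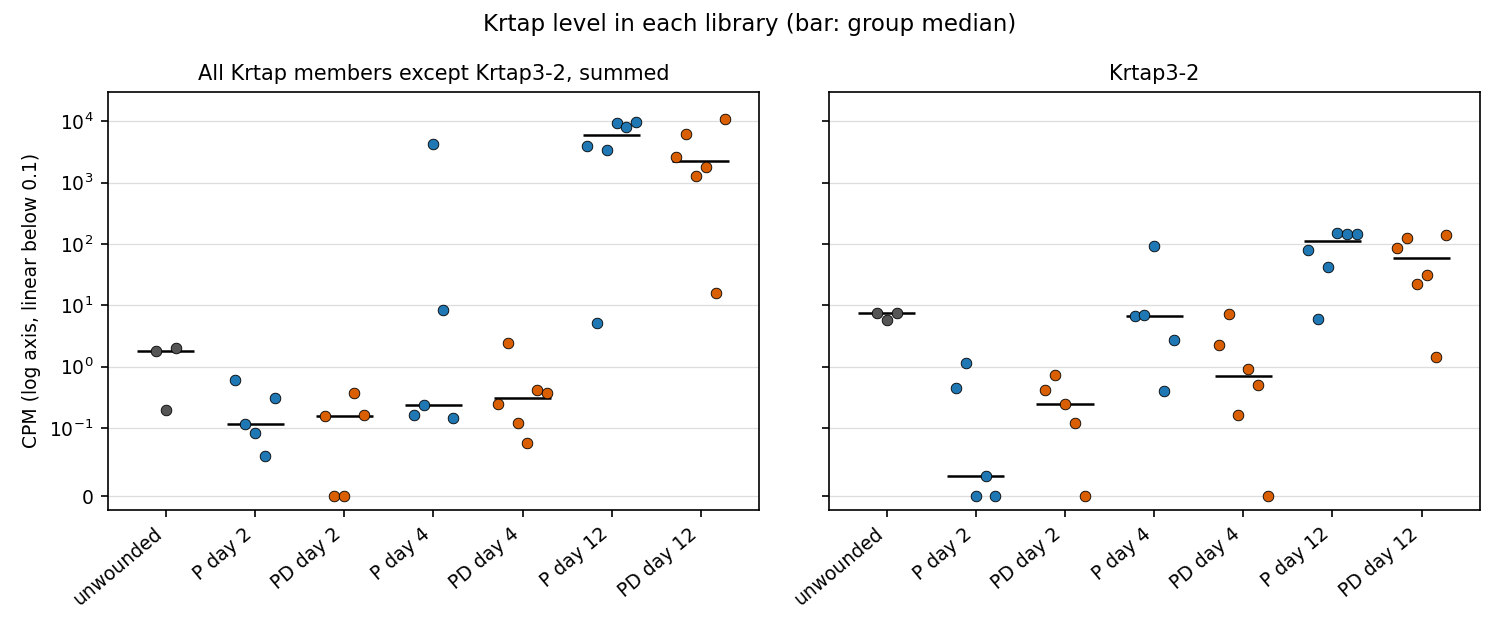
Krtap levels in all 36 libraries by group, in CPM on an axis that is linear below 0.1 and logarithmic above it; one panel shows Krtap3-2 and the other the summed level of the other 57 members, points are libraries and bars are group medians. Krtap3-2 was between 5.66 and 7.55 CPM in unwounded skin, where the other members summed to at most 1.99 CPM, and at day 12 both were high in 5 of 6 libraries of each wound group.

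Unwounded skin held almost a single Krtap transcript. Of 721 Krtap counts over the 3 unwounded libraries, 625 (86.7%) were Krtap3-2, a high-sulfur gene on chromosome 11, and 30 were Krtap17-1, an ultrahigh-sulfur gene at the end of the same block. No count fell on 28 members, and 51 had at most 3. Krtap3-2 stood at 7.36, 5.66 and 7.55 CPM. Its neighbour Krtap3-3, 98.66% identical to it over 373 bases, was at 0 in all 3 libraries, and Krtap3-1, a more distant copy, was at 0.15, 0 and 0.262 CPM. Krtap17-1 was at 0.299, 0.160 and 0.734 CPM. Reads shared between Krtap3-2 and Krtap3-3 could have been assigned to either or dropped, so their separate levels are uncertain where both are high.

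Krtap3-2 was lower than in unwounded skin at day 2 after wounding. At day 2 it was at 0.45, 1.13, 0, 0.03 and 0 CPM in P and at 0.42, 0.72, 0.24, 0.12 and 0 CPM in PD, below all unwounded libraries. The fall in P was 4.23 on the log2 scale (a log2 difference of -4.23, SE 1.36, edgeR adjusted p = 0.0131), and in PD the log2 difference was -4.48 (SE 1.39, adjusted p = 0.0111). By edgeR it was the only member of 56 called at day 2 in either group. The background was 19% of all tested genes called lower and 22.3% higher in P, and 18.4% and 21% in PD. DESeq2 called further members in each group, most of them lower. No share of all genes called by DESeq2 is given for these or the later DESeq2 counts. Krtap17-1, with 30 unwounded counts, had 0 counts in the P libraries of day 2 and 2 counts in those of PD, and its differences did not pass the test (adjusted p of 0.188 and 0.255 by edgeR).

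At day 4 Krtap3-2 was spread widely. It was at 6.65, 6.93, 93.5, 0.40 and 2.76 CPM in P and at 2.29, 7.14, 0.16, 0.90, 0.50 and 0 CPM in PD. Neither group differed from unwounded skin past the threshold (P log2 1.69, SE 1.31, adjusted p = 0.305; PD log2 -1.85, SE 1.18, adjusted p = 0.202). Without replicate 3 the P difference turned to -0.69, and without replicate 2 of PD the PD difference was called lower (adjusted p = 0.0464). Leaving out P replicate 3, whose follicle genes were also high, Krtap3-2 was at 2.29 to 7.14 CPM in the 5 day 4 libraries in which 9 interfollicular epidermis genes summed to between 34819 and 61248 CPM, and at 0 to 0.90 CPM in the 5 in which they summed to between 10550 and 21450 CPM. The split did not extend to unwounded skin, where Krtap3-2 was at 5.66 to 7.55 CPM with epidermis sums of 14577 to 22927 CPM, overlapping the lower range. The part of epidermis content in this was not tested.

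At day 12 Krtap3-2 was at 78.2, 6.07, 42.8, 152, 145 and 147 CPM in P and at 84.9, 126, 22.6, 31.1, 1.43 and 140 CPM in PD. The difference from unwounded skin was called in P (log2 3.80, SE 1.45, adjusted p = 0.0332) and not in PD (log2 3.30, SE 1.40, adjusted p = 0.0549). The call in P was lost without any 1 of the unwounded libraries (adjusted p 0.0847 to 0.105) and with no filter on low counts (0.0682). In PD the difference was called under 7 alternatives (adjusted p 0.00147 to 0.0494), among them leaving out PD replicate 3 (0.0494) or the low replicate 5 (0.0321). PD and P differed by -0.49 on the log2 scale (SE 0.96, adjusted p = 0.947).

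At day 4, Krtap genes other than Krtap3-2 were within the range of the day 12 libraries above 1000 CPM in 1 library. They summed to 4212 CPM in P replicate 3, to between 0.144 and 8.25 CPM in the other P libraries and to at most 2.39 CPM in PD. In P replicate 3 Krtap7-1 was at 510 CPM against 0 to 1.27 CPM in the other 4, and Krtap8-1 was at 440 CPM. The sums of P replicate 4 (8.25 CPM, 143 counts) and PD replicate 2 (2.39 CPM, 69 counts) were also above the highest unwounded library (1.99 CPM). The test called 31 of 56 members higher in P than in unwounded skin, where 23.6% of all genes were called higher and 19.7% lower, and called none lower. That count rests on the single library: without P replicate 3 no member was called, and without unwounded replicate 1, 2 or 3 the counts were 6, 5 and 6. In PD no member was called at day 4, either way (edgeR, smallest adjusted p 0.202, none at an unadjusted p under 0.05), where 25.4% of genes were called higher and 21.8% lower. DESeq2 called 9 higher and 13 lower there, and without PD replicate 2 edgeR called Krtap3-2 lower.

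The other follicle genes of P replicate 3 moved with its Krtap genes. Krt35, a hair keratin made early in the forming cortex, was at 282 CPM, and 14 hair shaft keratins summed to 2188 CPM. Hoxc13 was at 116 CPM against at most 17.1 CPM in unwounded skin. The 10 inner root sheath genes, which belong to the layer that moulds the shaft, summed to 9695 CPM. Neutrophil genes in the same library summed to 2671 CPM, within the 2487 to 9272 CPM of the other P libraries of day 4.

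At day 12, members of all 3 classes were high in both wound groups. Krtap7-1 was the member with the most counts over the series, and is high-sulfur only as part of the remainder of the codon rule. Its codons are 9.2% cysteine and 29.89% glycine plus tyrosine, the latter being the highest value in the high-sulfur class. It was at 354, 0.58, 363, 899, 953 and 1060 CPM in P and at 329, 518, 182, 251, 1.19 and 1302 CPM in PD. Unwounded skin had at most 0.0524 CPM. Both differences were called (adjusted p = 0.00232 for P and 0.00292 for PD).

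Krtap8-1, of the high-glycine-tyrosine class, was next, at 317, 0.13, 212, 706, 695 and 851 CPM in P and at 264, 449, 191, 226, 1.69 and 1020 CPM in PD. In P replicate 2 it lay within the unwounded range of 0 to 0.187 CPM, so the groups overlapped, and the calls had adjusted p = 0.00866 in P and 0.00991 in PD. The PD call of Krtap8-1 and that of Krtap6-5 were lost without unwounded replicate 2.

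Among high-sulfur genes, Krtap11-1 was at 203, 0.29, 187, 387, 375 and 459 CPM in P and at 104, 312, 125, 160, 1.79 and 638 CPM in PD, with adjusted p = 0.00117 and 0.00138. Krtap1-5 ranged from 0.291 to 572 CPM in P with a median of 339 CPM, and from 0.697 to 578 CPM in PD with a median of 148 CPM. Krtap15 had medians of 329 CPM in P and 66.3 CPM in PD. Krtap15 spans Krtap14 on the opposite strand, and whether the counting used strand is not given in the sources used here, so reads of the pair may not have been kept apart.

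Ultrahigh-sulfur genes were led by Krtap4-1, at 132, 0.16, 98.6, 350, 267 and 313 CPM in P and at 136, 248, 24.2, 44.3, 0.53 and 283 CPM in PD. Krtap17-1 was at 64.4, 0.484, 100.2, 180, 131 and 162 CPM in P and at 29.2, 132, 33.2, 51.8, 0.896 and 199 CPM in PD. As it had 30 counts in unwounded skin, a fitted difference can be given for it: log2 8.21 (SE 2.21, adjusted p = 0.0039) in P and 7.69 (SE 2.17, adjusted p = 0.00557) in PD. The lowest library of each wound group lay inside the unwounded range of 0.160 to 0.734 CPM in P, and just above it in PD.

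The Krtap5 genes of chromosome 7, known as cysteine-rich genes of the hair cuticle, were lower. Krtap5-5 was at 38.6, 0.19, 74.4, 133, 104 and 120 CPM in P and at 8.10, 78.9, 21.1, 29.6, 0.40 and 128 CPM in PD, and had no count in unwounded skin. With 3 counts over the unwounded group as the floor (0.0313 CPM), its mean was at least 2510-fold higher in P and at least 1420-fold higher in PD. For Krtap5-2 the same bounds were 1030-fold and 672-fold.

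Other high-glycine-tyrosine genes of chromosome 16 were low in the same 2 libraries, P replicate 2 and PD replicate 5. Krtap19-5 was at 133, 0.06, 168, 454, 328 and 484 CPM in P and at 23.3, 208, 38.1, 60.2, 0.30 and 476 CPM in PD. Krtap6-5 was at 96.2, 0.10, 46.6, 150, 118 and 130 CPM in P and at 119, 133, 9.03, 24.6, 0.07 and 135 CPM in PD. Krtap22-2, Krtap16-3 and Krtap21-1, of the same class, had P medians of 138, 151 and 40.7 CPM and PD medians of 61.7, 28.3 and 26.2 CPM.

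Subfamilies differed in level by more than 100-fold. Among the lead genes not yet named, P medians were between 72.0 and 195 CPM for Krtap14, Krtap9-3, Krtap28-10, Krtap13-1, Krtap2-4 and Krtap10-10, between 26.8 and 43.3 CPM for Krtap26-1, Krtap31-1, Krtap12-1 and Krtap24-1, and 155 CPM for Krtap3-1. Krtap29-1 and Krtap27-1 had P medians of 3.05 and 2.49 CPM, and at day 12 reached at most 6.96 and 4.00 CPM. Each of these 13 genes was called higher than in unwounded skin in both wound groups, with adjusted p between 0.00317 and 0.0342. On the scale of mean CPM per kilobase of exon, which allows genes to be compared, Krtap7-1 stood at 974 and Krtap8-1 at 808 in P at day 12, and Krtap4-1 at 191 and Krtap5-5 at 66.5.

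In total 55 of 56 members were called higher in P at day 12 and 54 of 56 in PD, and none lower. The background was 23.7% of all genes higher and 20% lower in P, and 24.2% and 20.7% in PD. Krtap4-13, at 0 to 2.86 CPM in P, was not called in either (adjusted p = 0.0563 and 0.0796), and Krtap3-2 was not called in PD. The median log2 difference over members was 12.56 in P and 11.89 in PD, or 11.08 and 10.41 with the 49 members of at most 3 unwounded counts at their bound, against 0.10 and 0.09 over all genes. Without unwounded replicate 2 the counts were 33 in P and 27 in PD, and without replicate 1 or 3 they were 33 and 34 in PD.

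Other follicle lists moved in the same comparison. All 14 hair shaft keratins measured were called higher in each group, as were 9 of 10 inner root sheath genes (1 was called lower), 6 of 7 regulators of the shaft, 4 of 5 crosslinking and cuticle genes and 7 of 7 melanocyte genes. Hoxc13 rose by 2.99 on the log2 scale in P (SE 0.90, adjusted p = 0.00773) and by 3.02 in PD (SE 0.90, adjusted p = 0.00747), and Foxn1 by 1.95 (SE 0.68, adjusted p = 0.0207) and 1.89 (SE 0.68, adjusted p = 0.0241). Of 7 follicle stem cell genes none was called higher and 1 was called lower. All 6 adipocyte genes were called lower in each group, 5 of 6 skeletal muscle genes were called lower in P and 1 of 6 in PD, and 7 of 7 neutrophil genes were called higher in P and 6 of 7 in PD. The skeletal muscle genes summed to between 49187 and 80090 CPM in unwounded skin, to between 2070 and 27715 CPM in P at day 12 and to between 4083 and 59328 CPM in PD. The part of tissue make-up in the Krtap rise was not tested.

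P and PD were compared at each day. At day 12 no member differed (edgeR, smallest adjusted p 0.893, none at an unadjusted p under 0.05), and the log2 differences ran from -1.44 to 0.05 with a median of -0.61, against -0.03 over all genes. For Krtap7-1 the difference was -0.49 (SE 1.37) and for Krtap5-5 -0.82 (SE 1.28). The 0% background (no gene of 20657 was called) and these standard errors leave differences of several-fold in either direction undetectable. At day 2 no member differed either (edgeR, none at an unadjusted p under 0.05), while DESeq2 called 4 higher and 7 lower among members at or near 0 counts.

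At day 4 the fitted difference of PD from P was negative for every member tested, from -14.41 to -2.48. By edgeR 52 of 56 members had an unadjusted p under 0.05, as did 2369 of all 20657 genes. No member passed adjustment over all genes (edgeR, smallest adjusted p 0.0824), and no gene of 20657 did. Leaving out P replicate 1, 2, 4 or 5 gave 4 members called lower, leaving out replicate 3 gave none, and DESeq2 called 44 lower. The change of the PD minus P difference from day 4 to day 12 was likewise not called for any member (edgeR, 0 of 56, 0% of all genes). At an unadjusted edgeR p under 0.05 there were 47 members and 623 of the 20657 genes. DESeq2 called 29 members higher.

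From day 4 to day 12 all 56 members were called higher in PD by edgeR (background 15.7% of genes higher and 15.6% lower). The median log2 difference was 12.24, or 10.97 with members at their bound. Fewer members were called by limma-voom and with only the libraries compared. PD replicate 5 of day 12 had a Krtap sum of only 17.1 CPM. In P 5 of 56 were called higher, with P replicate 3 at day 4 already carrying day 12 levels. That share is below the background (11.2% of genes higher and 12.6% lower), so it is not read as a result about the members. The 5 were Krtap5-2 (log2 8.39, SE 1.67, adjusted p = 0.000955), Krtap5-3 (8.05, SE 1.73, adjusted p = 0.00192), Krtap31-1, Krtap31-2 and Krtap9-5. All 5 were low in that library: Krtap5-2 was at 0.486 CPM there and at 25.3, 0.23, 33, 66.4, 29.3 and 39.1 CPM in P at day 12. Without replicate 3 all 56 were called, without any other day 4 library 2, and without P replicate 2 of day 12, the low one, 12.

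In the low library of each day 12 group, the Krtap genes were nearer to unwounded skin than to the other day 12 libraries, while Krt35 was within or near the day 12 range. P replicate 2 had 11.3 CPM of Krtap and PD replicate 5 had 17.1 CPM, or 5.20 and 15.7 CPM without Krtap3-2, against 0.199 to 1.99 CPM in unwounded skin. Krt35 was at 46.1 and 113 CPM in them, against 0.150 to 0.210 CPM in unwounded skin and 80.8 to 1361 CPM in the other day 12 libraries. Krt31, a keratin of the cortex that follows Krt35, was at 0.84 and 4.25 CPM. It was at 0.359 to 0.561 CPM in unwounded skin and at 119 to 882 CPM in the other day 12 libraries. Krt86, a later one, was at 0.48 and 0.43 CPM. It was at 0 to 0.0748 CPM in unwounded skin and at 34.6 to 700 CPM in the other day 12 libraries. In the day 2 wounds Krt86 was at 0.326 to 1.25 CPM, so the low libraries lay within the day 2 range for it.

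Genes of the matrix and inner root sheath were also present in these libraries. Krt71, an inner root sheath keratin, was at 170 and 172 CPM. The inner root sheath list summed to 674 and 756 CPM, against 227 to 401 CPM in unwounded skin and 2340 to 12767 CPM in the other day 12 libraries. This list was thus also low in these libraries for day 12. Hoxc13 was at 25.4 and 49.5 CPM and Foxn1 at 6.20 and 13.2 CPM. The hair shaft regulators, with both of these among them, summed to 174 and 308 CPM. Unwounded skin had 88.3 to 132 CPM and the other day 12 libraries 234 to 1237 CPM. Shh, a signal of the growing matrix, was at 10.4 and 24.4 CPM. The follicle growth signals, which include Shh, summed to 207 and 356 CPM. For them unwounded skin had 118 to 143 CPM and the other day 12 libraries 203 to 418 CPM.

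**Figure D3:**
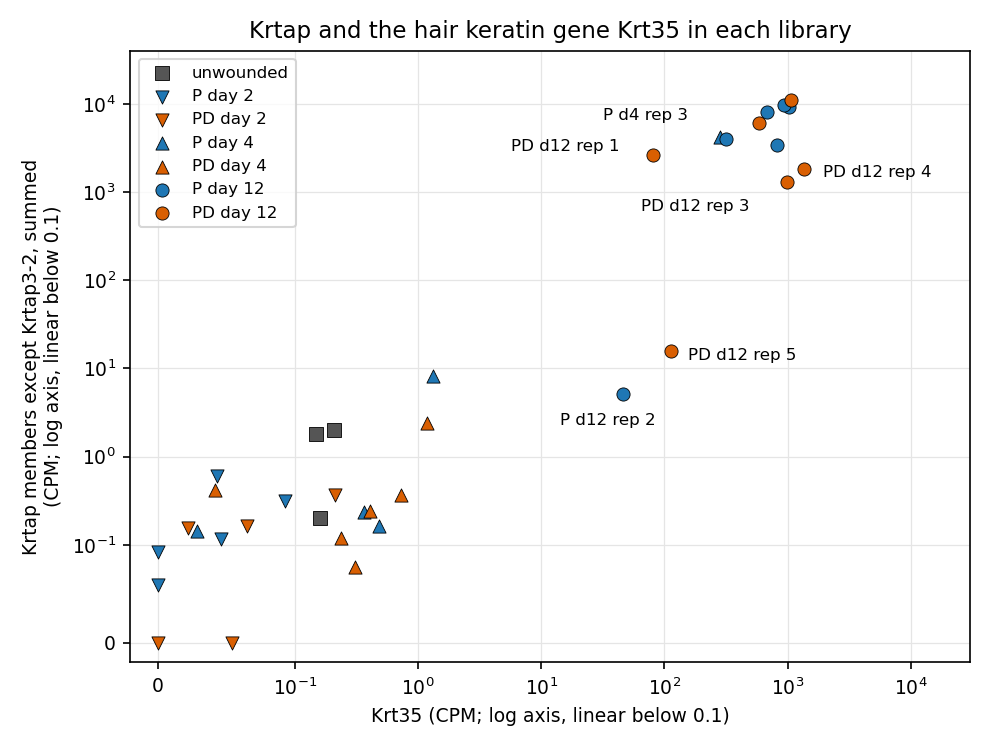
Krt35 level (x axis, CPM) against the summed level of the 57 Krtap members other than Krtap3-2 (y axis, CPM) in each of the 36 libraries, both on logarithmic axes that are linear near 0, with points coloured by group. P day 12 replicate 2 (Krt35 46.1 CPM, Krtap 5.20 CPM) and PD day 12 replicate 5 (113 and 15.7 CPM) lie far below the other day 12 libraries for Krtap and within or near their range for Krt35 (80.8 to 1361 CPM).

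Relative to the 14 hair shaft keratins together, the Krtap sum was 1.51 to 2.04 in the P day 4 replicate 3 library and in 8 of the other 10 libraries rich in Krtap. In PD replicates 3 and 4 of day 12 it was 0.625 and 0.656, in P replicate 2 it was 0.189, in PD replicate 5 it was 0.122, and in unwounded skin it was 0.438 to 0.566. PD replicates 3 and 4 had Krt35 at 986 and 1361 CPM, among the highest of all libraries, with the later keratins Krt86 at 34.6 and 47.9 CPM and Krt81 at 75.4 and 84.8 CPM.

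The mix of Krtap transcripts was compared in the 11 libraries with at least 1000 Krtap counts (5 of P day 12, 5 of PD day 12 and P day 4 replicate 3), as percent of Krtap counts. The smallest of them had 32926 Krtap counts, which bounds a subfamily share to within 0.37 points (Wilson 95% interval, counting error only). By class the mix was narrow: ultrahigh-sulfur genes took 14.9% to 24.4%, high-sulfur genes 42.1% to 50.1% and high-glycine-tyrosine genes 28.4% to 35.9%. Krtap7 counts as high-sulfur here only as part of the remainder of the codon rule. The high-sulfur and high-glycine-tyrosine shares thus depend on that rule. By subfamily the mix was wider. Krtap4, Krtap19, Krtap7 and Krtap8 had the highest shares, with ranges of 6.29% to 18%, 3.33% to 16.1%, 8.29% to 13.8% and 6.13% to 14.5%.

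**Figure D4:**
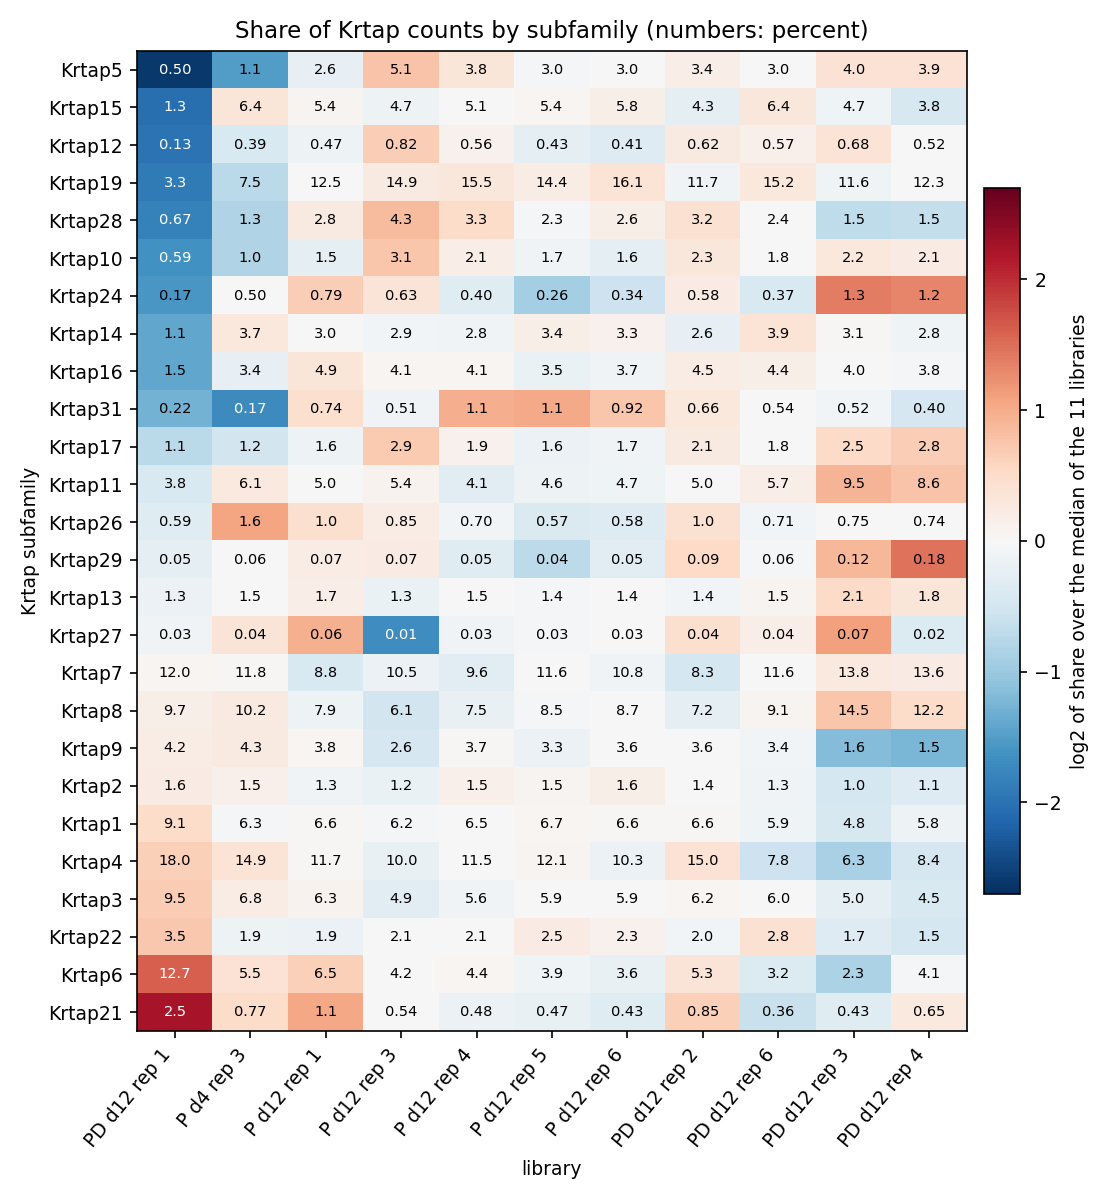
Heat map of the share of each Krtap subfamily (rows) in all Krtap counts of each of the 11 libraries with at least 1000 Krtap counts (columns); numbers are percent and colour is the log2 of the share over the median of the 11 libraries. Krtap20, at or near 0 in all but one library, is not drawn. PD day 12 replicate 1 (first column) has the lowest share of Krtap5 (0.497%) and Krtap19 (3.33%) and the highest of Krtap6 (12.7%) and Krtap21 (2.54%), and PD day 12 replicates 3 and 4 (last columns) have the highest of Krtap7, Krtap8, Krtap11 and Krtap24.

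PD day 12 replicate 1 had a mix of its own. Krtap6 took 12.7% of its Krtap counts against 2.31% to 6.49% in the other 10 libraries, Krtap21 took 2.54% against 0.360% to 1.11%, and Krtap4 took 18% against 6.29% to 15%. At the other end, Krtap19 took 3.33% against 7.50% to 16.1%, Krtap5 took 0.497% against 1.06% to 5.13%, and Krtap15 took 1.26% against 3.79% to 6.45%. Each of these shares lies outside the spread over the other 10 libraries. The subfamilies were picked from 27 because this library was lowest or highest for them, so that follows from the choice. This is a single library and no test was made.

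Single members of these subfamilies are given here for PD day 12 replicate 1. Krtap5-2 had 0.003% of its Krtap counts and Krtap5-3 had 0.001%, against 0.357% to 0.951% and 0.270% to 0.638% in the 9 libraries other than it and P day 4 replicate 3, and Krtap5-5 had 0.296% against 0.959% to 2.146%. Krtap20-2 had 20.4 CPM there, 689 of its 745 counts over the series (92.5%), and at most 0.692 CPM elsewhere. Of the genes listed as Krtap6, the one with the symbol Krtap6-3, which GENCODE M39 names Krtap20-1, took 2.60% there against 0.149% to 0.753% elsewhere.

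P day 4 replicate 3 was also low in a subset of genes. Krtap5 took 1.06%, Krtap10 took 1.04%, Krtap19 took 7.50% and Krtap31 took 0.166% of its Krtap counts, each at the low end with PD day 12 replicate 1. Krtap5-2 had 0.011% and Krtap5-3 0.010%.

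PD replicates 3 and 4 of day 12 had another mix. Krtap8 took 14.5% and 12.2%, Krtap7 took 13.8% and 13.6%, Krtap11 took 9.47% and 8.61%, and Krtap24 took 1.29% and 1.25%, the highest 2 of the 11 libraries in each case. Krtap9 took 1.62% and 1.54%, the lowest 2. These are the 2 libraries whose Krtap sum was low relative to their hair shaft keratins. In PD replicate 1, melanocyte genes summed to 38.3 CPM, in P day 4 replicate 3 to 88.1 CPM, and in the other Krtap-rich libraries to between 494 and 1319 CPM. Krt84, another hair keratin gene, was at 101.6 CPM in PD replicate 1 against 3.49 to 28.2 CPM in those. The part of these in the mix was not tested.

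The files name 58 Krtap genes, while GENCODE M39 gives that name to 113 gene IDs, all of which were found in the files. Of the 55 that carry other symbols there, the 4 Krtap20 genes had 3.39 counts per 100 member counts in PD day 12 replicate 1 and at most 0.0429 in the other rich libraries, the 16 Krtap10 genes had 2.09 there, 4.96 in P day 4 replicate 3 and 6.51 to 11.2 in the other rich libraries, and the 5 Krtap12 genes had 0.295 against 0.760 to 1.46. Members were 75.8% to 81.5% of all Krtap counts in the rich libraries. The further genes, which the member rule did not use, thus showed the high Krtap20 and low Krtap10 and Krtap12 shares of PD day 12 replicate 1 too. They come from the same single library and the same subfamilies, so they are not independent support.

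Many Krtap promoters hold the letters of a TATA box, where the transcription machinery can assemble, close to the start. Of 51 members matched in the RefSeq promoter table (GRCm38.p6), 31 (60.8%) had the letters TATAAA on the gene strand within 40 bases before the start, against 2.31% of 32851 promoters in the table. By class this was 10 of 14 ultrahigh-sulfur, 12 of 19 high-sulfur and 9 of 18 high-glycine-tyrosine genes. Over the whole 300-base window and both strands, TATAAA was in 82.4% against 13.6%, CTTTGA, letters known to be recognised by Lef1, in 29.4% against 16%, and GACGC, known for Foxn1, in 5.88% against 27.2%. The 60 bases before the start are shown for the genes whose levels were described above, from RefSeq, 5′ to 3′ on the gene's strand, with TATAAA in capitals.
Krtap8-1, chr16:89487953-89488012, minus strand: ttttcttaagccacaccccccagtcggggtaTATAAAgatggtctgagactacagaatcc
Krtap4-1, chr11:99628240-99628299, minus strand: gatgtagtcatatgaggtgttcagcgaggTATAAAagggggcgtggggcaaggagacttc
Krtap5-2, chr7:142176006-142176065, minus strand: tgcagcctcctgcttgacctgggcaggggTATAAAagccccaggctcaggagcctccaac
Krtap3-1, chr11:99566631-99566690, minus strand: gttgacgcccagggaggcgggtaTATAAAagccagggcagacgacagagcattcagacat
Krtap3-2, chr11:99556854-99556913, minus strand: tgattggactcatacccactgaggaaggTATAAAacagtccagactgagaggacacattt
Krtap3-3, chr11:99550864-99550923, minus strand: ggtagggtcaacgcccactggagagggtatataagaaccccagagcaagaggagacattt
Krtap20-2, chr16:89205801-89205860, plus strand: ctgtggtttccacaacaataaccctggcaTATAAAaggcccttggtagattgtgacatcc
Krtap3-2 has TATAAA starting 32 bases before the start. Krtap3-3 has no exact TATAAA in this window but holds the similar letters tatataag. Whether this bears on the levels of these genes was not tested. A match is a description of letters and not of a bound site.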

How the data were processed

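Gene counts from 36 mouse skin libraries were used as the authors deposited them. The libraries were made with a stranded mRNA kit, per the labels. Trimmomatic, HISAT2 2.1.0 (build GRCm39), SAMtools 1.9 and HTSeq are named in the submitters' processing notes as the tools behind these counts. The strand setting and annotation release are not given in the sources used here. Members and gene lists were chosen with earlier results of these data known. Genes past a minimum count of 10 (total 15) were kept, 20657 of 55414, and all 36 libraries were fitted in 7 groups with edgeR 4.0.16 (R 4.3.3; TMM, robust quasi-likelihood) with Benjamini-Hochberg adjustment, and checked with limma 3.58.1 and DESeq2 1.42.0. The fit was tested on simulated data, with changes planted only in well-counted genes and the spread between libraries capped. That test does not cover members with hardly any counts in unwounded skin. Named genes were the highest member of each subfamily and the 3 highest in unwounded skin, Krtap3-2, Krtap17-1 and Krtap3-1; other members were singled out after their values were seen. Classes were planned on protein residues and taken from codons instead, as no protein table was at hand. Krt85 was not analysed here. Identity between genes was measured with BLAST 2.17.0.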

Additional observations from a re-analysis of the deposited data

Results flagged for a closer look

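Of 20 sets of values (a quantity within a group) tested for a library that stands apart, where chance gives about 1 in 20, 6 had one. The quantities share genes and libraries, so the 6 are not independent and are not read against that rate. P day 4 replicate 3 stood apart from its group in the summed Krtap level (4305 CPM), in that sum without Krtap3-2 (4212 CPM) and in the summed hair shaft keratins (2188 CPM). PD day 4 replicate 2 stood apart in the summed Krtap level (9.53 CPM) and in that sum without Krtap3-2 (2.39 CPM), at levels close to those of unwounded skin. P day 12 replicate 2 stood apart in the ratio of Krtap to hair shaft keratins, at 0.189.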

How the results depend on the processing

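The day 12 differences from unwounded skin of the named genes recomputed kept their direction in every alternative run, and the counts called depended on single libraries and on the tool. For P day 4 against unwounded, 31 members were called higher in the fit described, 49 by DESeq2, 0 by limma-voom with sample weights, 8 with no filter, 0 with only the libraries compared, and 0 to 37 with 1 library left out. For P day 12 against P day 4, 5 became 2 by DESeq2, 55 by limma-voom, 2 with no filter and 2 to 56 with 1 library left out. For PD day 12 against PD day 4, 56 became 12 by limma-voom, 17 with only the libraries compared and 55 to 56 with 1 left out. Against unwounded skin, the PD day 12 count of 54 became 35 with no filter, and with 1 library left out the counts were 27 to 55 in PD and 33 to 56 in P. DESeq2 called 4 members higher and 22 lower in P at day 2, 3 higher and 25 lower in PD at day 2, and 9 higher and 13 lower in PD at day 4. Between PD and P it called 4 higher and 7 lower at day 2 and 44 lower at day 4, and 29 higher for the change between days. With 1 library left out edgeR called 0 to 4 lower in PD than in P at day 4, 0 to 1 lower in PD day 4 than in unwounded skin, and 1 to 1 lower at day 2 in each group. The Krtap3-2 difference of P day 4 from unwounded skin turned from 1.69 to -0.31 by limma-voom and to -0.69 without P day 4 replicate 3, in a range of -0.69 to 2.05 with 1 library left out. The cause of these differences was not tested. The mean ultrahigh-sulfur share of Krtap counts went from 18.8% to 26.3% in P at day 12 and from 20.3% to 27.2% in PD with looser class limits (25% and 30%), and to 22.7% in P when cysteine was judged first, which was chosen after seeing the data; the PD high-sulfur share went from 46.9% to 37.4% with the looser limits. These means include the low library of each group (P replicate 2, 15.5% of 349 counts; PD replicate 5, 26.9% of 516 counts), so no order of P and PD is read from them. Among single genes, 449 values were unchanged in call and direction, 19 gained a call, 7 lost one and 1 reversed when no library was left out, and 464, 14, 5 and 1 when 1 was. Replicate numbers are shared between groups, but the labels do not say that a number marks a shared animal, batch or day, and not every same-numbered pair correlated above 0.1, so the libraries were not treated as paired: the deviations of 51 of 96 same-numbered pairs correlated above 0.1 (median 0.109), against a median of -0.03 in 456 other pairs, and 10 libraries correlated best with their own number. With a replicate block, 4 members in place of 31 were called higher in P at day 4 and 15 in place of 5 from day 4 to day 12 in P. Depth limits the unwounded and day 2 values most, where 3 counts over the 3 unwounded libraries are 0.0313 CPM.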
